A study of Anolis sagrei with 15 samples.

Results

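The genes described here drive and restrain cell division. They encode the helicase and its loaders that open DNA for replication, the enzymes of nucleotide supply, and the cyclins and cyclin-dependent kinases (CDKs). Others encode the machinery of chromosome segregation, the E2F factors that switch on replication genes, and the CDK inhibitors and RB proteins that hold cells back. All were taken by gene symbol from a list of 49 names, and every gene model that carries one of these symbols was kept. Of the 49 symbols, 47 were found, on 60 of the 20235 gene models in the count table. CCNB2 and CCND2 were found on no gene model and are not analysed here.

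The measurements are RNA-seq read counts per gene model from the posterior globe (the back of the eye) of brown anole (*Anolis sagrei*) embryos at Sanger stage 16.5, a stage of embryonic development. Tissue was taken from a temporal, a nasal and a central region, and each region has 5 libraries, for 15 in all. Embryos of all 3 groups came from wild-caught parents and the labels name no treatment; the study's methods state that tissue of 3 embryos of mixed sex was pooled, so no library describes a single embryo. Nothing in the labels says that replicates came from separate collections, so p-values measure the spread between these libraries. The 2 flanking regions were each compared with the central region and with each other, which asks whether dividing and resting cells are unevenly spread over the back of the eye. The 3 comparisons share libraries and are not independent of each other.

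In a dividing cell, the ORC, CDC6 and CDT1 proteins load the MCM helicase onto DNA in G1, D cyclins with CDK4 and CDK6 inactivate RB, E2F factors then switch on the replication genes, and mitotic kinases carry the cell through division. CDK inhibitors of the CDKN1 family stop this sequence, and their expression rises in many tissues as cells leave the cycle. In the vertebrate retina, neurons are born from dividing progenitors, and in many species exit from the cycle starts in the center of the eye and spreads outward.

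Libraries held 15177438 to 27035312 counted reads (median 19993197). Levels are given as CPM, read counts scaled to the size of each library with TMM factors, which are not corrected for transcript length and are therefore compared between libraries and not between genes. Of the 60 member gene models, 52 with 46 symbols passed the filter on low counts and were tested. Their counts were low, with mean levels of 0.522 to 83.2 CPM (median 2.97), and 32 of the 52 lay under 5 CPM. The other 8 had 1 to 119 reads over all 15 libraries: one gene model each of CCNB3 and MCM4, and further gene models of MCM7, MKI67 (2), CENPE, CENPF and KIF23. In bulk tissue, fewer cells of a type and less RNA per cell cannot be told apart.

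One library stood apart before any comparison. Central replicate 4 had 0 reads for 10 of the 52 tested members (19.2%), and for 8.57% of all 15910 tested gene models, against 0.0754% to 0.61% in the other 14 libraries, where no tested member was at 0. The 10 gene models belong to MCM7, RRM1, TYMS, CDK2, BUB1, CDC20, KIF23 (2 gene models), ECT2 and TPX2. A count of 0 in this library allows up to 0.192 CPM, taking 3 reads as the upper limit of a count of 0, while RRM1 (ANOSAT009180) had 1.56 to 4.44 CPM in the other 4 central libraries. Other members were far above the rest of their group in the same library, among them CDK1, AURKB, MKI67 and BUB1B, whose values are given below. The library's depth, 15712525 reads, was within the range of the others, and what sets it apart was not tested. The calls of members against the central region are therefore given with and without it.

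Among the CDK inhibitors, CDKN1A and CDKN1C moved in opposite directions in the nasal region. CDKN1A, which binds and blocks G1 and S phase CDKs and is a classic target of p53, was lowest in nasal libraries. Its gene model ANOSAT009946 had 66.0, 95.5, 71.5, 77.2 and 58.6 CPM in temporal libraries 1 to 5, 43.6, 43.2, 46.0, 45.8 and 39.9 CPM in nasal libraries, and 84.6, 119, 84.4, 84.3 and 65.2 CPM in central libraries. All 5 nasal values were below every temporal and every central value, while temporal and central values overlapped. CDKN1A was lower in nasal than in central libraries by a log2 fold change of -1.0 (SE 0.144, edgeR quasi-likelihood test with Benjamini-Hochberg adjustment, adjusted p = 6e-05), and higher in temporal than in nasal libraries (0.76, SE 0.143, edgeR adjusted p = 0.00277). Between temporal and central libraries the log2 difference was -0.25 (SE 0.142, edgeR adjusted p = 0.414). Paired by replicate number, the temporal library was below the central one in all 5 pairs (mean log2 difference -0.238, SD 0.0997). The same held for 12.4% of all gene models. With the replicate number as a block in the fit, the difference was -0.24 (SE 0.0933, edgeR adjusted p = 0.113). Without central replicate 4 the nasal difference was -1.01.

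CDKN1C, an inhibitor of the same family that is expressed as many embryonic cells stop dividing, showed the reverse. It had 26.3, 34.0, 34.5, 30.3 and 29.8 CPM in temporal libraries 1 to 5, 57.4, 47.6, 53.9, 51.6 and 57.0 CPM in nasal libraries, and 26.9, 36.2, 32.4, 26.2 and 38.0 CPM in central libraries. Every nasal library was above all 10 others. The log2 fold change was 0.74 for nasal against central (SE 0.12, edgeR adjusted p = 0.000204; 0.68 without central replicate 4) and -0.79 for temporal against nasal (SE 0.12, edgeR adjusted p = 0.000471). Temporal and central libraries differed by -0.05 (SE 0.12, edgeR adjusted p = 0.91).

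CDKN1B, the third inhibitor, which restrains cyclin E with CDK2, passed in no comparison. It had 23.1, 29.4, 28.5, 26.0 and 23.7 CPM in temporal libraries, 34.7, 25.7, 28.0, 28.1 and 31.5 CPM in nasal libraries, and 21.2, 28.6, 24.0, 36.5 and 37.2 CPM in central libraries. The regions overlapped, and the nasal against central log2 difference was 0.00 (SE 0.151, edgeR adjusted p = 0.988), with a sign that turned under several alternatives.

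Set against each other within a library, CDKN1A and CDKN1C separated the nasal region from both others. The CDKN1A level divided by the CDKN1C level was 2.38 ± 0.351 in temporal libraries (SD, n = 5; 1.97 to 2.81), 0.822 ± 0.0889 in nasal libraries (0.7 to 0.909) and 2.79 ± 0.66 in central libraries (1.72 to 3.28). The ratio was below 1 in each nasal library and above 1 in each of the other 10; it is not corrected for transcript length, so only its change between regions can be read. It was formed after both genes' values were seen and was not tested. A second gene model named CDKN1A (ANOSAT012595), whose identifier follows that of CDKN1B, was near 1 CPM and below: it averaged 0.796 ± 0.236 CPM in temporal, 0.473 ± 0.474 CPM in nasal and 0.735 ± 0.424 CPM in central libraries. It was not called by edgeR, while limma-voom with sample quality weights called it lower in nasal than in central libraries (-1.71, limma adjusted p = 0.025).

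**Figure D1:**
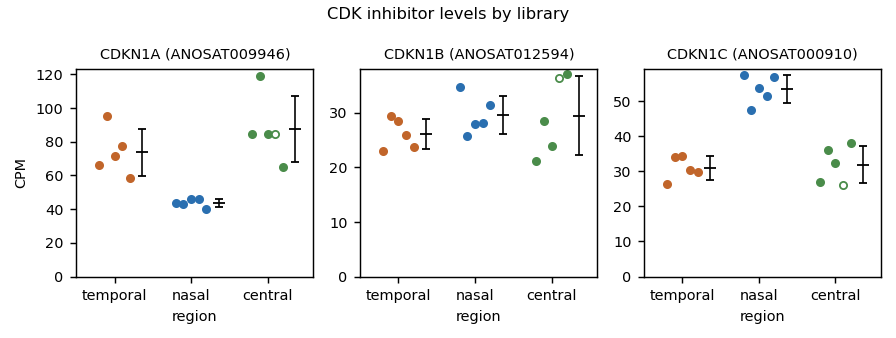
Levels of the 3 CDK inhibitors in CPM (y axis, from 0) in the 5 temporal, 5 nasal and 5 central libraries; each point is a library, the open circle is central replicate 4, and the black bar is the mean with its SD. Nasal libraries are the lowest for CDKN1A (39.9 to 46.0 CPM) and the highest for CDKN1C (47.6 to 57.4 CPM), while the regions overlap for CDKN1B.

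Summed levels of lens and of Müller glia markers were lowest in nasal libraries, as CDKN1A was, though single genes of these lists differed. Summed levels of 15 lens marker gene models were 70.1 to 111 CPM in temporal, 26.2 to 43.4 CPM in nasal and 170 to 233 CPM in central libraries, with no overlap, and of 9 that could be tested 4 were lower in nasal than in central libraries (44.4%, against 10.4% of all gene models) and 3 higher in temporal than in nasal libraries (33.3%, against 4.4%). The order of temporal and central in this sum was not that of the whole list, whose median log2 difference between them was 0.50 (temporal against central). The gene with the largest part of the sum, the small heat shock crystallin CRYAB, averaged 52.1 ± 16.7 CPM in temporal, 10.5 ± 3.31 CPM in nasal and 149 ± 17.2 CPM in central libraries. Müller glia markers (11 gene models) summed to 3030 to 3570 CPM in temporal, 2380 to 2530 CPM in nasal and 2630 to 3330 CPM in central libraries. The gene with the largest part of that sum, the glutamate transporter SLC1A3, did not share this order, with 1870 ± 175 CPM in temporal, 1430 ± 108 CPM in nasal and 1050 ± 259 CPM in central libraries. Of 9 Müller glia gene models tested, 1 was higher and 4 were lower in nasal than in central libraries (11.1% and 44.4%, against 7.94% and 10.4%). The list's median log2 difference was -0.69. Endothelium markers had a like median of -0.64, with 2 of 11 lower (18.2%) and 0 higher. Mean sums of endothelium and of differentiating neuron markers were also lowest in nasal libraries, with ranges that overlapped. For the neurons they were 12300 CPM in temporal, 10800 CPM in nasal and 12800 CPM in central libraries. Those of progenitor, pigment epithelium, cartilage and sclera, connective tissue, skeletal muscle and blood markers were lowest in temporal or central libraries. No gene model of these lists was at 0 over all libraries. The marker lists were chosen with earlier results of these data known, so their shares are a description and not a test. The part of these cell types in the CDKN1A result was not tested.

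Summed levels of the genes that promote division were higher in both flanks, as a description with no test. Their 51 gene models, taken without the inhibitors, E2F and RB genes, summed to 254 ± 3.27 CPM in temporal (249 to 257), 283 ± 16.3 CPM in nasal (269 to 310) and 210 ± 18.3 CPM in central libraries (189 to 233; SD, n = 5 each), and no library of a region reached the range of another. CDK6 alone carried much of this: without it the sums were 185 to 195 CPM in temporal, 203 to 223 CPM in nasal and 166 to 194 CPM in central libraries. Without the 4 gene models of highest mean, CDK6, CCNE1, CENPF and PCNA, the remaining 47 summed to 117 to 123 CPM, 122 to 144 CPM and 111 to 129 CPM in the same order, and all 3 ranges overlapped. The temporal and central ranges thus overlapped once CDK6 was left out, and the nasal range met them once CCNE1, CENPF and PCNA were left out too. CCNE1 did not share the order of the sum, with means of 25.2 CPM in temporal, 30.0 CPM in nasal and 29.2 CPM in central libraries. Mean log2 levels over the 43 tested gene models also overlapped. They were 1.45 to 1.61 in temporal, 1.45 to 1.81 in nasal and 0.79 to 1.52 in central libraries.

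For nasal against central, 10 of the 52 tested members passed an adjusted p of 0.05 (edgeR), 8 higher and 2 lower. That is 19.2%, against 18.4% of all gene models tested. With the replicate number as a block, 11 of 52 members passed (21.2%), against 27.9% of all gene models. By direction, 7.94% of all gene models were higher in nasal and 10.4% were lower, against 15.4% and 3.85% of members. Nasal and central libraries did not overlap in 10 members, 8 of them with nasal above, against 13.3% of all gene models (5.97% with nasal above and 7.35% below). The median log2 fold change was 0.26 over members and 0.03 over all gene models. For temporal against central, 4 of 52 members passed (7.69%), 3 higher and 1 lower, against 6.78% of all gene models (3.24% higher and 3.53% lower), with medians of 0.09 over members and 0.01 over all. With the block 5 passed (9.62%), against 12.7%. Libraries did not overlap in 6 members, 5 of them with temporal above, against 7.29% of all gene models (3.76% with temporal above and 3.53% below). For temporal against nasal, 2 of 52 passed (3.85%), 1 in each direction, against 6.59% of all gene models (4.4% higher and 2.19% lower), with medians of -0.18 and -0.01. With the block 3 passed (5.77%), against 13.9%. Libraries did not overlap in 3 members, 1 of them with temporal above, against 9.13% of all gene models (5.7% with temporal above and 3.43% below). At an unadjusted p under 0.05 the numbers were 14, 6 and 6. No share of all gene models is given at that limit, so these numbers have no background to be read against. Members were chosen with earlier results of these data known, so the shares of members here and below are a description.

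The count of called members depended on single libraries and on the test. Libraries of the same replicate number deviated together, and the fits without 1 library do not use this pairing. No library was left out of the fit with the replicate block, in which all 10 members kept their nasal against central call. Leaving out 1 library gave 5 to 10 members for nasal against central, with 5 without nasal replicate 2 and 6 without central replicate 1 or nasal replicate 5. Without central replicate 4, 9 of 53 tested members passed for nasal against central (20.6% of all gene models passed), 3 for temporal against central (7.36%) and 3 for temporal against nasal (9.24%). DESeq2 called 10, 4 and 3 of 52 members in the order of comparisons above, beside 21.8%, 9.46% and 9.52% of all gene models. With sample quality weights, limma-voom called 14, 4 and 5 of 52, beside 29.2%, 9.91% and 15.2%. With both tools the members' share was below that of all gene models in each comparison. An edgeR fit of only the 2 regions compared called 7, 3 and 2 members. In it CDK4, CCND1 and TOP2A lost their nasal call and TOP2A its temporal call against central (edgeR adjusted p = 0.0687, 0.0912, 0.0779 and 0.0591 in that order). No share of all gene models is given for this fit. The same holds for fits without 1 library other than central replicate 4. Their counts therefore have no background to be read against. With no filter on low counts CCND1 lost its nasal call (edgeR adjusted p = 0.0563). In the edgeR test of all libraries, 10 symbols were called in at least 1 comparison. They were the same 10 that were called for nasal against central, where 19.2% of members and 18.4% of all gene models passed.

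**Figure D2:**
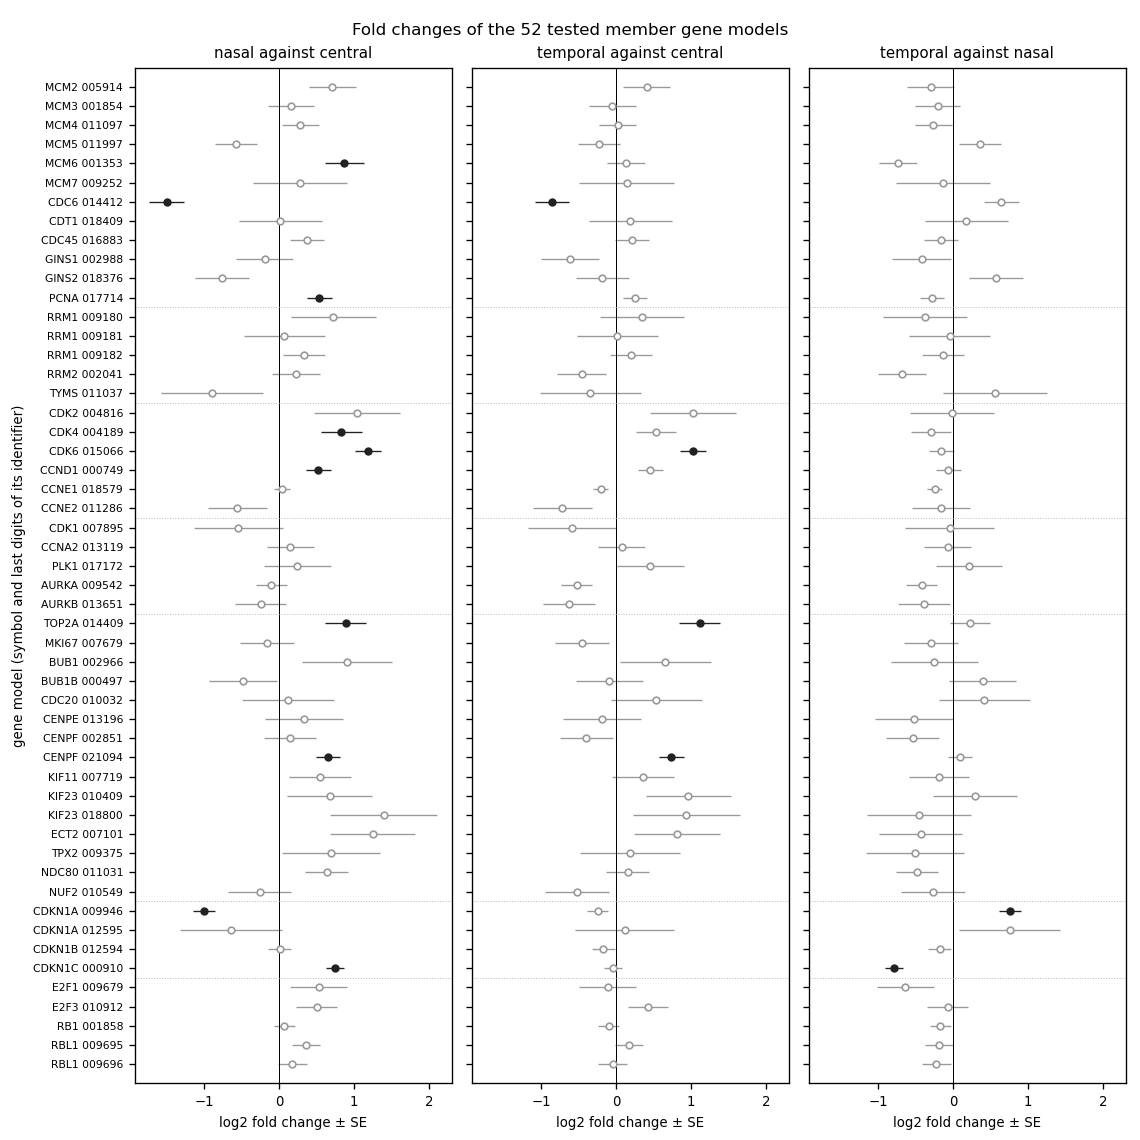
Log2 fold change with its standard error (x axis, same scale in each panel) of the 52 tested member gene models for nasal against central, temporal against central and temporal against nasal; filled points passed an edgeR adjusted p of 0.05, open points did not, and dotted lines part the role groups. Filled points number 10, 4 and 2, with the lowest value that of CDC6 (-1.50, nasal against central).

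Among the 12 tested gene models of replication licensing and the helicase, calls went both ways. CDC6, the loader that puts the MCM ring on replication origins, was highest in the central region. It had 8.64, 5.93, 9.75, 9.82 and 7.73 CPM in temporal libraries 1 to 5, 6.34, 3.97, 4.93, 7.58 and 4.09 CPM in nasal libraries, and 18.3, 10.3, 11.7, 20.3 and 15.3 CPM in central libraries. Each central value was above every value of both flanks. CDC6 was lower in nasal than in central libraries (log2 fold change -1.50, SE 0.233, edgeR adjusted p = 0.000133; -1.37 without central replicate 4) and lower in temporal than in central libraries (-0.86, SE 0.228, edgeR adjusted p = 0.0276). The temporal call was lost without central replicate 4 (-0.73, edgeR adjusted p = 0.0535), and also without central replicate 1 or temporal replicate 1, 2 or 5 (-0.88 to -0.73 and edgeR adjusted p 0.0535 to 0.0879 over these 5). With the replicate number as a block, CDC6 was also higher in temporal than in nasal libraries (0.66, SE 0.156, edgeR adjusted p = 0.00926), against 0.64 and an adjusted p of 0.121 without the block; limma-voom gave 0.72 (adjusted p = 0.043).

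MCM6, a subunit of the helicase that CDC6 helps to load, was higher in nasal libraries. It had 2.37, 2.79, 1.56, 3.12 and 2.11 CPM in temporal libraries, 4.67, 4.30, 3.84, 3.02 and 4.17 CPM in nasal libraries, and 1.89, 1.78, 2.22, 2.57 and 2.49 CPM in central libraries. All nasal values were above all central values, while the nasal library with 3.02 CPM overlapped the temporal range. The nasal against central log2 fold change was 0.87 (SE 0.256, edgeR adjusted p = 0.023; 0.93 without central replicate 4). The call was lost without central replicate 1 or 2 or nasal replicate 1, 2 or 5 (0.78 to 0.86, edgeR adjusted p 0.0517 to 0.0652). For temporal against nasal it was -0.74 (SE 0.255), with an edgeR adjusted p of 0.101 in all 15 libraries and 0.0454 without central replicate 4, and a limma-voom adjusted p of 0.0226.

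PCNA, the sliding clamp that tethers polymerases to DNA, had 18.4, 20.6, 15.2, 26.4 and 18.1 CPM in temporal libraries, 23.6, 24.6, 19.1, 28.5 and 24.6 CPM in nasal libraries, and 15.6, 17.0, 12.3, 19.3 and 19.0 CPM in central libraries. It was higher in nasal than in central libraries (0.54, SE 0.161, edgeR adjusted p = 0.0257; 0.59 without central replicate 4), although 1 nasal library lay within the central range. Leaving out central replicate 1, 2 or 3 or nasal replicate 2, 4 or 5 ended the call (0.44 to 0.53, edgeR adjusted p 0.0516 to 0.0756). With the replicate number as a block the difference was 0.54 (SE 0.0996, edgeR adjusted p = 0.000724). In all 5 pairs of the same number the nasal library was above the central one. The same held for 14 of the 52 tested members, PCNA included, and for 16.7% of all gene models. PCNA was the only called member whose regions overlapped.

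Of the other helicase subunits none passed with edgeR. Over all 15 libraries, each apart from MCM5 had its highest mean in nasal libraries, as MCM6 did. MCM2 averaged 6.25 ± 0.819 CPM in temporal, 7.69 ± 1.12 CPM in nasal and 4.70 ± 2.27 CPM in central libraries (nasal against central 0.71, SE 0.312, edgeR adjusted p = 0.134). MCM3 averaged 3.32 ± 1.08, 3.84 ± 1.24 and 3.45 ± 1.19 CPM in that order. MCM4 (ANOSAT011097) averaged 4.79 ± 1.32, 5.76 ± 1.60 and 4.74 ± 0.706 CPM. MCM5 had its lowest mean in nasal libraries, with 2.42 ± 0.355 CPM in temporal, 1.89 ± 0.362 CPM in nasal and 2.83 ± 0.795 CPM in central libraries (nasal against central -0.58, SE 0.282, edgeR adjusted p = 0.178). MCM7 (ANOSAT009252) averaged 1.22 ± 0.615, 1.35 ± 0.462 and 1.10 ± 0.828 CPM. Its nasal against central log2 difference was 0.28 with central replicate 4, which had 0 reads, and -0.03 without it. For MCM2 the difference was 0.46 without that library. The subunits work as one ring, and their log2 differences for nasal against central spanned -0.58 for MCM5 to 0.87 for MCM6.

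The factors that load or activate the helicase beside CDC6 passed in no comparison. CDT1, the partner of CDC6 in loading, averaged 1.55 ± 0.582 CPM in temporal, 1.37 ± 0.445 CPM in nasal and 1.36 ± 0.87 CPM in central libraries. CDC45, which turns the loaded ring into the active helicase, averaged 10.2 ± 2.64, 11.5 ± 3.18 and 8.84 ± 2.03 CPM. Of the GINS complex, which joins it there, GINS1 averaged 1.15 ± 0.359, 1.53 ± 0.408 and 1.77 ± 0.752 CPM. GINS2 had 2.73 ± 1.31, 1.82 ± 0.316 and 3.08 ± 0.959 CPM, with a nasal against central log2 difference of -0.76 (SE 0.358, edgeR adjusted p = 0.16), the lowest of the group after CDC6.

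In the table of RefSeq genes for the assembly rAnoSag1.mat, CDC6 and TOP2A lie on the same chromosome with 2 genes, GJD3 and RARA, between them. The 2 members moved in opposite directions between nasal and central libraries. RARA, a retinoic acid receptor, was lower in nasal than in central libraries (log2 fold change -0.39, SE 0.119, edgeR adjusted p = 0.0272), while WIPF2, the gene beyond CDC6, did not pass (-0.13, SE 0.122, edgeR adjusted p = 0.546).

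Nucleotide supply gave no edgeR call among 5 gene models. The main gene model of RRM1, the large subunit of ribonucleotide reductase (ANOSAT009182), had 11.3, 10.8, 14.9, 6.66 and 9.01 CPM in temporal libraries, 15, 9.32, 13.0, 9.54 and 11.0 CPM in nasal libraries, and 9.97, 9.54, 12.1, 3.21 and 10.9 CPM in central libraries. The value of 3.21 was that of central replicate 4, and the other libraries of the 3 regions overlapped. RRM1 also sits on ANOSAT009180 (3.30 ± 1.15, 4.30 ± 0.814 and 2.58 ± 1.81 CPM) and ANOSAT009181 (0.618 ± 0.37, 0.639 ± 0.415 and 0.606 ± 0.157 CPM), and how reads were split among models of a symbol is not known. RRM2, the small subunit, averaged 2.91 ± 0.569 CPM in temporal, 4.68 ± 0.978 CPM in nasal and 4.02 ± 2.27 CPM in central libraries. With limma-voom RRM2 was higher in nasal than in central libraries (0.75, limma adjusted p = 0.0231) and lower in temporal than in nasal libraries (-0.75, limma adjusted p = 0.0281), against edgeR values of 0.23 (adjusted p = 0.703) and -0.68 (adjusted p = 0.278). TYMS, which makes thymidylate, averaged 0.562 ± 0.254, 0.379 ± 0.172 and 0.705 ± 0.54 CPM.

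The cyclins and kinases of G1 and S had 3 of 6 higher in nasal than in central libraries (50%, against 7.94% of all gene models). In temporal libraries 1 of 6 was higher than in central libraries (16.7%, against 3.24%). CDK6, which with D cyclins phosphorylates RB to open the way to S phase, showed the largest difference of the 6. It had 65.9, 60.8, 63.7, 62.2 and 65.2 CPM in temporal libraries 1 to 5, 53.7, 63.3, 66.7, 80.3 and 90.8 CPM in nasal libraries, and 22.9, 23.4, 28.1, 39.1 and 42.9 CPM in central libraries. The lowest flank library was above the highest central one. The log2 fold change was 1.02 for temporal against central (SE 0.172, edgeR adjusted p = 0.000838) and 1.18 for nasal against central (SE 0.172, edgeR adjusted p = 6.73e-05), and 1.12 and 1.28 without central replicate 4. The flanks differed by -0.16 (temporal against nasal, SE 0.169, edgeR adjusted p = 0.732).

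CDK4, the sister kinase of CDK6, had 5.14, 5.85, 3.25, 7.02 and 5.99 CPM in temporal libraries, 4.83, 7.10, 6.01, 5.62 and 9.89 CPM in nasal libraries, and 3.23, 4.75, 4.77, 2.12 and 3.91 CPM in central libraries. The nasal range began just above the central one, at 4.83 against 4.77 CPM. The nasal against central difference was 0.83 (SE 0.269, edgeR adjusted p = 0.0386) and did not pass without central replicate 4 (0.68, edgeR adjusted p = 0.0555). It was also lost without central replicate 1 or 5, nasal replicate 2, 3 or 5, or temporal replicate 1 or 5, and over these 8 fits the difference was 0.65 to 0.86 with edgeR adjusted p 0.0509 to 0.135.

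CCND1, the D cyclin that activates both kinases, had 7.78, 8.16, 6.81, 7.29 and 9.22 CPM in temporal libraries, 8.64, 8.19, 8.38, 7.89 and 8.02 CPM in nasal libraries, and 5.35, 6.61, 5.94, 4.10 and 6.64 CPM in central libraries. Each flank library was above each central library. The nasal difference passed (0.52, SE 0.166, edgeR adjusted p = 0.0356; 0.42 without central replicate 4), and the temporal one did not (0.45, SE 0.166, edgeR adjusted p = 0.129). The nasal call was lost without any 1 of the 5 nasal libraries, central replicate 1 or 3, or temporal replicate 4 (0.49 to 0.53, edgeR adjusted p 0.0508 to 0.0783). The 2 flanks differed by -0.07 (temporal against nasal, SE 0.164, edgeR adjusted p = 0.908), so a call in one flank alone does not set them apart.

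The cyclin E and CDK2 step that follows was not called. CCNE1, a cyclin of S phase entry, averaged 25.2 ± 0.77 CPM in temporal, 30.0 ± 2.0 CPM in nasal and 29.2 ± 3.65 CPM in central libraries, and all temporal values were below all nasal values (-0.25, SE 0.104, edgeR adjusted p = 0.201). CCNE2 averaged 1.47 ± 0.586, 1.65 ± 0.509 and 2.44 ± 1.19 CPM, its central mean raised by replicate 4 (4.49 CPM, against 1.37 to 2.23 CPM in the other central libraries). CDK2, their kinase, averaged 1.80 ± 0.838, 1.83 ± 0.483 and 0.875 ± 0.606 CPM, with 0 reads in central replicate 4. Its log2 differences from central were 1.02 for temporal (SE 0.574, edgeR adjusted p = 0.398) and 1.04 for nasal (SE 0.573, edgeR adjusted p = 0.244), and 0.72 and 0.73 without that library.

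**Figure D3:**
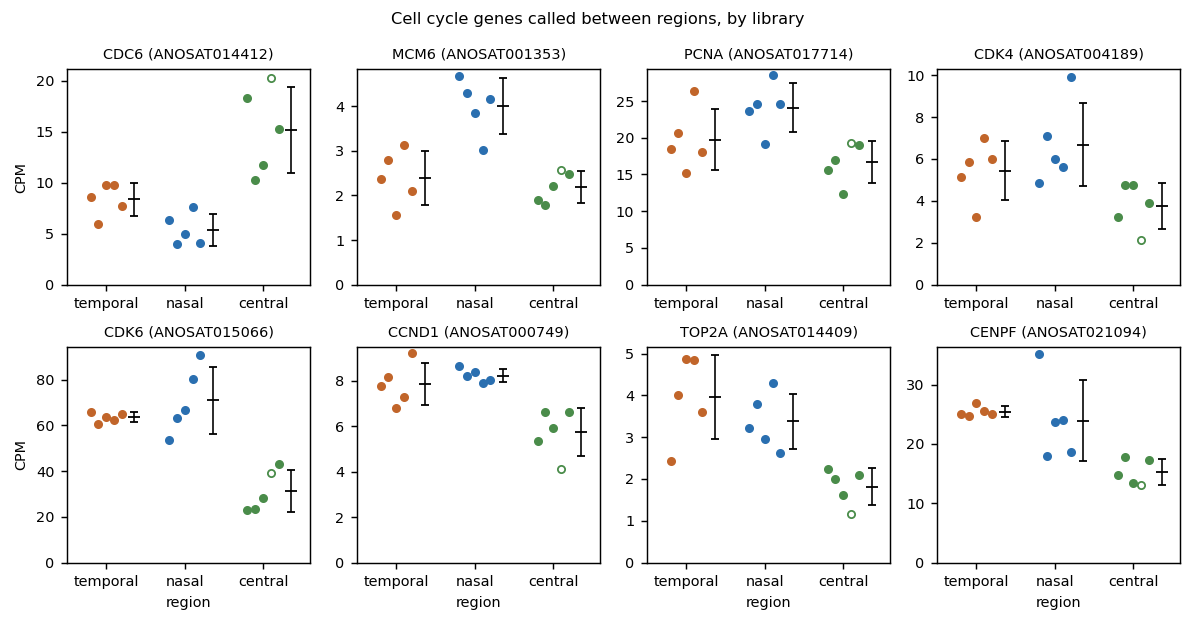
Levels in CPM (y axes, from 0) of CDC6, MCM6, PCNA, CDK4, CDK6, CCND1, TOP2A and CENPF in the temporal, nasal and central libraries; each point is a library, the open circle is central replicate 4, and the black bar is the mean with its SD. CDC6 is highest in the central libraries (10.3 to 20.3 CPM), while CDK6, CCND1, TOP2A and CENPF are lowest there.

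None of the 5 tested gene models for cyclins and kinases of G2 and mitosis passed in any comparison, and central replicate 4 set the direction of several. CDK1, the mitotic kinase, had 5.26 CPM in that library and 0.722 to 1.32 CPM in the other 4 central ones, against 0.371 to 2.11 CPM in nasal and 0.563 to 2.03 CPM in temporal libraries. AURKB, the kinase of the chromosomal passenger complex, had 10.9 CPM there and 1.91 to 4.30 CPM in the other central libraries, beside means of 3.08 ± 0.281 CPM in temporal and 4.03 ± 0.525 CPM in nasal libraries. For nasal against central, CDK1 gave -0.54 with and 0.33 without the library, and AURKB gave -0.25 and 0.29.

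AURKA, the centrosomal mitotic kinase, had 4.61, 6.33, 3.88, 3.89 and 4.46 CPM in temporal libraries, 7.09, 6.85, 6.90, 4.45 and 5.76 CPM in nasal libraries, and 5.35, 7.35, 7.22, 7.95 and 5.52 CPM in central libraries. Its regions overlapped, and the temporal against central difference of -0.52 (SE 0.206) had an edgeR adjusted p of 0.17. In all 5 pairs of the same number the temporal library was below both the central and the nasal one. With the replicate number as a block, AURKA still did not pass against central (-0.53, edgeR adjusted p = 0.0966) or nasal libraries (-0.43, edgeR adjusted p = 0.186). CCNA2, the cyclin of S phase and G2, averaged 2.92 ± 0.851 CPM in temporal, 3.07 ± 0.345 CPM in nasal and 2.78 ± 1.29 CPM in central libraries. PLK1, the polo-like mitotic kinase, averaged 1.51 ± 0.275, 1.31 ± 0.268 and 1.11 ± 0.708 CPM. CCNB3, the only B cyclin found, had 119 reads in all and was not tested.

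Over the 5 tested gene models of this group the median log2 difference from central was -0.52 for temporal and -0.10 for nasal. Without central replicate 4 the same 5 gave medians of 0.28 for temporal and 0.33 for nasal, with no gene called by edgeR in either case.

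Of 15 tested gene models for chromosome structure, the spindle checkpoint, kinetochores and cytokinesis, TOP2A and CENPF were higher in both flanks. That is 13.3% in each comparison with central libraries, against 7.94% of all gene models for nasal and 3.24% for temporal. TOP2A, which untangles sister DNA and peaks in G2 and mitosis, had 2.44, 4.02, 4.88, 4.84 and 3.60 CPM in temporal libraries, 3.22, 3.80, 2.96, 4.29 and 2.62 CPM in nasal libraries, and 2.23, 2.0, 1.61, 1.15 and 2.10 CPM in central libraries. Every flank value was above every central value. The log2 fold change was 1.11 for temporal against central (SE 0.274, edgeR adjusted p = 0.0171) and 0.89 for nasal against central (SE 0.274, edgeR adjusted p = 0.0301), and 0.99 and 0.76 without central replicate 4. The temporal call was lost without temporal replicate 3 or 4 (1.01 to 1.03, edgeR adjusted p 0.0502 to 0.0557), and the nasal call without central replicate 2 or 3 or nasal replicate 2 or 4 (0.79 to 0.91, edgeR adjusted p 0.0506 to 0.0837).

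CENPF, a kinetochore and nuclear matrix protein of G2 and mitosis, was read mostly on ANOSAT021094, with 25.0, 24.7, 26.9, 25.6 and 25.1 CPM in temporal libraries, 35.2, 18.0, 23.7, 24.1 and 18.7 CPM in nasal libraries, and 14.8, 17.8, 13.4, 13.0 and 17.3 CPM in central libraries. Temporal libraries were tightly grouped, nasal ones were widely spread, and none of either reached down into the central range. It was higher in temporal than in central libraries by 0.74 (SE 0.163, edgeR adjusted p = 0.00813) and higher in nasal than in central libraries by 0.65 (SE 0.162, edgeR adjusted p = 0.00864), and by 0.68 and 0.59 without central replicate 4. A further gene model of CENPF (ANOSAT002851) did not follow it, with 1.66 ± 0.689 CPM in temporal, 2.42 ± 0.305 CPM in nasal and 2.2 ± 0.716 CPM in central libraries and no call.

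MKI67, the antigen used to stain cycling cells, passed in no comparison. Its main gene model (ANOSAT007679) had 3.30, 3.27, 1.81, 2.04 and 2.19 CPM in temporal libraries, 2.79, 3.43, 2.91, 2.86 and 3.46 CPM in nasal libraries, and 1.89, 2.04, 2.50, 7.76 and 3.18 CPM in central libraries. The 7.76 CPM belonged to replicate 4, and the nasal against central difference was -0.16 (SE 0.356, edgeR adjusted p = 0.819) with that library and 0.36 (edgeR adjusted p = 0.346) without it.

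The checkpoint genes were not called. BUB1, a kinase of the spindle checkpoint, averaged 0.555 ± 0.0812 CPM in temporal, 0.661 ± 0.245 CPM in nasal and 0.349 ± 0.28 CPM in central libraries. BUB1B, its partner, averaged 1.59 ± 0.376, 1.21 ± 0.476 and 1.71 ± 1.32 CPM, with 4.04 CPM in central replicate 4 against 0.782 to 1.37 CPM in the other central libraries. Its nasal against central log2 difference was -0.48 with and 0.11 without that library. CDC20, which the checkpoint holds back from the anaphase-promoting complex, averaged 0.728 ± 0.38, 0.551 ± 0.0701 and 0.498 ± 0.307 CPM.

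Among kinetochore genes, NDC80, which grips spindle fibers, averaged 2.10 ± 0.65 CPM in temporal, 2.93 ± 0.544 CPM in nasal and 1.89 ± 0.145 CPM in central libraries, all nasal values being above all central values (0.63, SE 0.283, edgeR adjusted p = 0.141). Its partner NUF2 averaged 1.06 ± 0.38, 1.29 ± 0.522 and 1.54 ± 0.69 CPM. CENPE, a kinetochore motor (ANOSAT013196), averaged 1.07 ± 0.442, 1.53 ± 0.457 and 1.23 ± 1.16 CPM, the central mean again raised by replicate 4 at 3.27 CPM; limma-voom called it higher in nasal than in central libraries (1.23, limma adjusted p = 0.0262). So the paired subunits NDC80 and NUF2 stood in a different order over the regions, within errors that did not part them by the test.

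Of the spindle and cytokinesis genes, KIF11, the motor that pushes spindle poles apart, averaged 1.56 ± 0.504 CPM in temporal, 1.78 ± 0.732 CPM in nasal and 1.23 ± 0.552 CPM in central libraries. TPX2, which seeds spindle fibers, averaged 0.848 ± 0.216, 1.21 ± 0.305 and 0.742 ± 0.796 CPM. ECT2, the exchange factor that starts the cleavage furrow, averaged 1.49 ± 0.311, 2.02 ± 0.703 and 0.842 ± 0.631 CPM (nasal against central 1.25, SE 0.571, edgeR adjusted p = 0.151; 0.94 without central replicate 4, which had 0 reads). With limma-voom the ECT2 difference was 1.29 (limma adjusted p = 0.0195).

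KIF23, the motor of the central spindle, varied with the replicate number in every region. Its gene model ANOSAT018800 had 7.98, 4.18, 5.25, 1.54 and 8.80 CPM in temporal libraries 1 to 5, 13.5, 5.10, 6.75, 0.901 and 11.8 CPM in nasal libraries, and 3.12, 1.37, 3.66, 0 and 6.25 CPM in central libraries. Number 4 was lowest and numbers 1 and 5 were among the 3 highest in each region. Without the block its log2 difference from central was 0.94 for temporal (SE 0.712, edgeR adjusted p = 0.582) and 1.39 for nasal (SE 0.713, edgeR adjusted p = 0.203). With the replicate number as a block it passed in both comparisons, at 1.24 for temporal (SE 0.354, edgeR adjusted p = 0.0301) and 1.5 for nasal (SE 0.349, edgeR adjusted p = 0.00431). Without central replicate 4, and with no block, it did not pass, at 0.63 for temporal (edgeR adjusted p = 0.712) and 1.09 for nasal (edgeR adjusted p = 0.234). Its second tested gene model, ANOSAT010409, averaged 1.48 ± 0.114 CPM in temporal, 1.21 ± 0.493 CPM in nasal and 0.744 ± 0.496 CPM in central libraries, and was not called with or without the block.

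**Figure D4:**
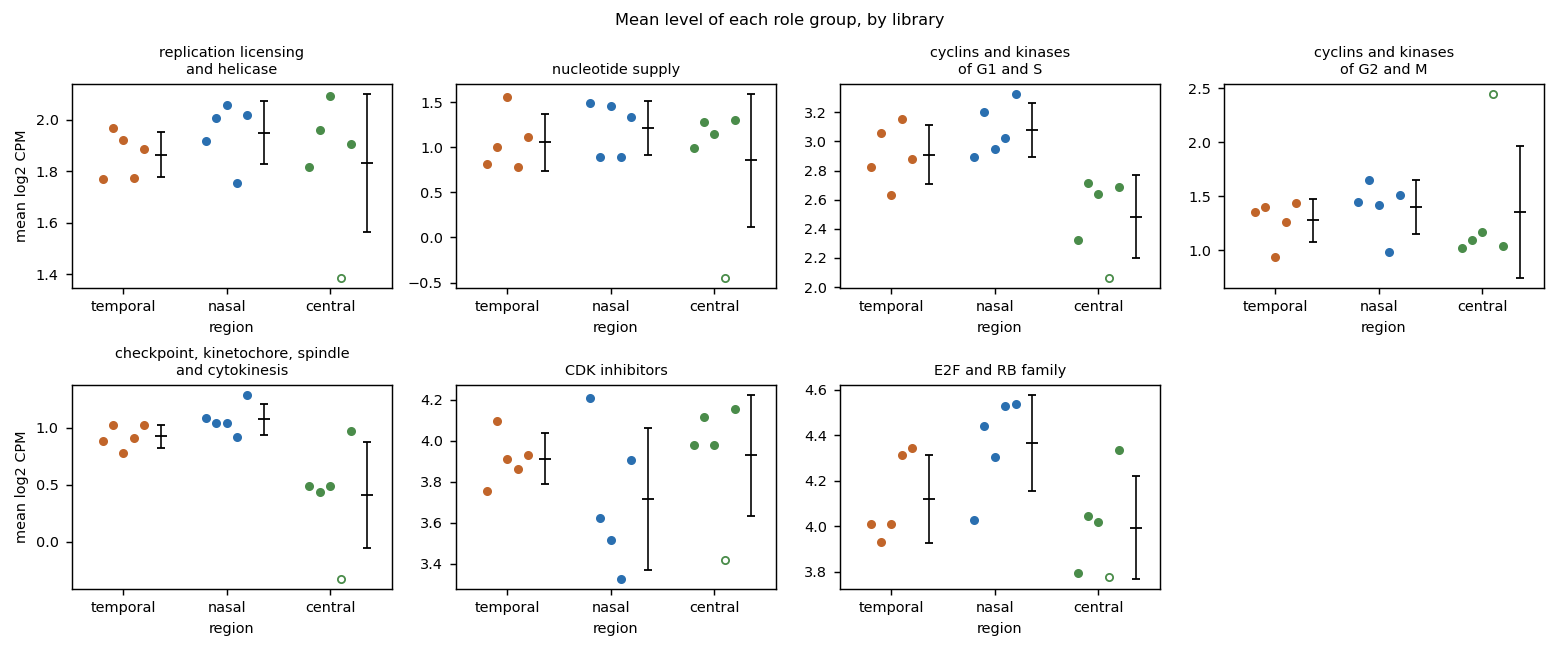
Mean log2 CPM over the tested gene models of each role group (y axes, which do not start at 0) in the temporal, nasal and central libraries; each point is a library, the open circle is central replicate 4, and the black bar is the mean with its SD. Central replicate 4 is the lowest library for nucleotide supply (-0.45) and the highest for cyclins and kinases of G2 and M (2.45).

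The E2F and RB genes, which couple the G1 kinases to replication, passed in no comparison. RB1, the retinoblastoma protein, had 75.5, 66.2, 76.1, 86.4 and 86.3 CPM in temporal libraries, 61.7, 97.8, 89.1, 98.0 and 92.5 CPM in nasal libraries, and 79.3, 66.3, 75.9, 111 and 85.9 CPM in central libraries, and the regions overlapped. RBL1, its relative that binds repressive E2Fs, averaged 38.5 ± 3.96, 43.9 ± 9.88 and 34.2 ± 9.19 CPM on ANOSAT009695 and 25.4 ± 5.94, 29.6 ± 5.54 and 26.2 ± 6.39 CPM on ANOSAT009696. The activator E2F1 averaged 1.56 ± 0.497, 2.45 ± 0.652 and 1.70 ± 0.819 CPM. E2F3, an activator too, averaged 13.3 ± 1.27, 14 ± 3.18 and 9.89 ± 4.29 CPM in temporal, nasal and central libraries, with 3.14 CPM in central replicate 4.

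Summed levels of retinal progenitor markers overlapped between regions: 22 gene models summed to 1640 to 2010 CPM in temporal, 1660 to 2200 CPM in nasal and 1580 to 2060 CPM in central libraries. Their mean log2 level over the 20 tested, in which each gene counts equally, was 4.27 to 4.59 in temporal, 4.51 to 4.82 in nasal and 4.23 to 4.43 in central libraries, so that all nasal libraries were above all central ones, and the median log2 fold change for nasal against central was 0.31. Of the 20, 5 were higher in nasal than in central libraries (25.0%, against 7.94% of all gene models) and 2 were lower (10%, against 10.4%), and 1 was higher in temporal than in central libraries (5.0%, against 3.24%). Markers of differentiating neurons (21 gene models) summed to 10600 to 14300 CPM in temporal, 9860 to 12100 CPM in nasal and 12000 to 14400 CPM in central libraries. Of 19 tested, 5 were higher and 5 lower in nasal than in central libraries (26.3% each, against 7.94% and 10.4% of all gene models). The share higher in nasal libraries was thus above that of all gene models in both marker lists. In the neuron list the share lower was above it as well, and the list's median log2 difference was 0.02. As with the other marker lists, these shares are a description, since the lists were chosen with earlier results of these data known. The part of cell makeup in any member's difference was not tested.

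A wider list of 194 cell cycle symbols outside the members was read from the same test, with 187 found on 226 gene models, of which 191 were tested. For nasal against central 21 passed (11.0%, edgeR), 15 higher and 6 lower. For temporal against central 4 passed (2.09%), 1 higher and 3 lower, and for temporal against nasal 9 passed (4.71%), 1 higher and 8 lower. All 3 shares were below those of all gene models, but by direction 4.19% of the list was lower in temporal than in nasal libraries, against 2.19% of all gene models. With the replicate number as a block the numbers were 37, 11 and 17 of 191 tested, beside 27.9%, 12.7% and 13.9% of all gene models. Without central replicate 4 they were 31, 6 and 16 of 195 tested, beside 20.6%, 7.36% and 9.24% of all gene models. In both settings the list's share was below that of all gene models in each comparison.

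The genes of cycle exit and arrest held the most calls of these lists: of 39 tested, 5 were higher and 5 lower in nasal than in central libraries, 12.8% in each direction against 7.94% and 10.4% of all gene models. These lists were chosen with earlier results of these data known, so their shares are a description and not a test. The 5 higher were MYCN, MYCL, INSM1, BTG1 and TP53INP1, and of these MYCN and MYCL are growth-promoting MYC factors rather than brakes. MYCL had 15.6, 14.7, 13.8, 11.1 and 15.7 CPM in temporal libraries, 18.0, 28.6, 22.5, 23.4 and 30.5 CPM in nasal libraries, and 3.90, 4.94, 4.44, 0.0641 and 7.96 CPM in central libraries, in 3 ranges that did not overlap. Its log2 fold change was 1.71 for temporal against central (SE 0.439, edgeR adjusted p = 0.0223) and 2.51 for nasal against central (SE 0.446, edgeR adjusted p = 0.000493), and 1.41 and 2.21 without central replicate 4, which had the 0.0641 CPM. The temporal call was lost without central replicate 1 or temporal replicate 1 (1.67 to 1.68, edgeR adjusted p 0.0508 to 0.0528).

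MYCN averaged 14.3 ± 2.70 CPM in temporal, 24.3 ± 1.51 CPM in nasal and 12.3 ± 1.79 CPM in central libraries, with nasal above both others (nasal against central 0.99, SE 0.143, edgeR adjusted p = 6.73e-05; temporal against nasal -0.77, SE 0.142, edgeR adjusted p = 0.00229). BTG1, an antiproliferative factor, was also highest in nasal libraries on ANOSAT012218, with 163 ± 15.3, 278 ± 15.6 and 180 ± 24.4 CPM. Its log2 fold change was 0.62 for nasal against central (edgeR adjusted p = 0.000108) and -0.77 for temporal against nasal (edgeR adjusted p = 4.62e-05). TP53INP1, a p53-induced gene linked to arrest, was highest there too, with 23.9 ± 2.58, 37.8 ± 5.40 and 25.2 ± 2.98 CPM. Its differences in the same 2 comparisons were 0.58 (edgeR adjusted p = 0.00229) and -0.66 (edgeR adjusted p = 0.0025). In these 3 genes, as in CDKN1C, each nasal library was above all temporal and all central libraries.

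INSM1, which marks newborn neurons and late progenitors, averaged 11.6 ± 3.78 CPM in temporal, 16.4 ± 1.28 CPM in nasal and 7.44 ± 3.24 CPM in central libraries (nasal against central 1.14, SE 0.265, edgeR adjusted p = 0.00504). BTG2, a relative of BTG1, was lower in temporal than in nasal libraries (40.9 ± 5.54 and 55.5 ± 5.23 CPM; -0.44, SE 0.126, edgeR adjusted p = 0.042), with ranges that overlapped. Of the 10 libraries of these regions, leaving out any 1 but nasal replicate 4 or temporal replicate 2 ended that call (-0.48 to -0.39, edgeR adjusted p 0.0516 to 0.11).

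The 5 lower in nasal than in central libraries were TOB1, E2F8, CCND3, RBL2 and CCNG2. TOB1, a BTG family brake on growth, averaged 81.1 ± 3.75 CPM in temporal, 74.8 ± 6.26 CPM in nasal and 112 ± 11.9 CPM in central libraries, and was lower in both flanks (temporal against central -0.47, edgeR adjusted p = 0.00222; nasal against central -0.59, edgeR adjusted p = 0.0001). E2F8, a repressor of the E2F family, averaged 4.41 ± 0.988, 3.43 ± 1.18 and 7.62 ± 2.85 CPM (nasal against central -1.15, SE 0.298, edgeR adjusted p = 0.0107). CCND3, a D cyclin that promotes division, averaged 23.6 ± 1.91, 18.1 ± 1.98 and 24.9 ± 3.14 CPM (nasal against central -0.46, SE 0.119, edgeR adjusted p = 0.0108).

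RBL2, the RB relative of resting cells, averaged 115 ± 10.3 CPM in temporal, 103 ± 9.85 CPM in nasal and 129 ± 14.1 CPM in central libraries (nasal against central -0.33, SE 0.095, edgeR adjusted p = 0.0203); the call was lost without central replicate 3 or nasal replicate 2 or 4 (-0.31 to -0.27, edgeR adjusted p 0.0523 to 0.0626). CCNG2, a cyclin raised in arrested cells, was lower in temporal than in central libraries on ANOSAT013315 (139 ± 21.6 and 207 ± 32.1 CPM; -0.58, SE 0.146, edgeR adjusted p = 0.0188), a call lost without central replicate 5 or temporal replicate 1, 2 or 3 (-0.56 to -0.51, edgeR adjusted p 0.0514 to 0.0584). On ANOSAT012578 it averaged 25.5 ± 3.0 CPM in temporal, 29.3 ± 3.70 CPM in nasal and 37.9 ± 4.30 CPM in central libraries (temporal against central -0.57, edgeR adjusted p = 0.00601; nasal against central -0.37, edgeR adjusted p = 0.0398). The nasal call on this gene model was lost without central replicate 2, 3 or 4 or nasal replicate 1, 2, 3 or 5 (-0.39 to -0.30, edgeR adjusted p 0.0512 to 0.0903). Without central replicate 4 the nasal differences were 0.94 for MYCN, 1.02 for INSM1, 0.69 for BTG1, 0.62 for TP53INP1, -0.54 for TOB1, -1.08 for E2F8, -0.46 for CCND3 and -0.35 for RBL2, and each still passed (edgeR adjusted p 3.48e-05 to 0.018). The called genes of the exit list thus went both ways between nasal and central libraries, and 29 of the 39 tested were not called. The list's median log2 difference between nasal and central libraries was -0.01.

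**Figure D5:**
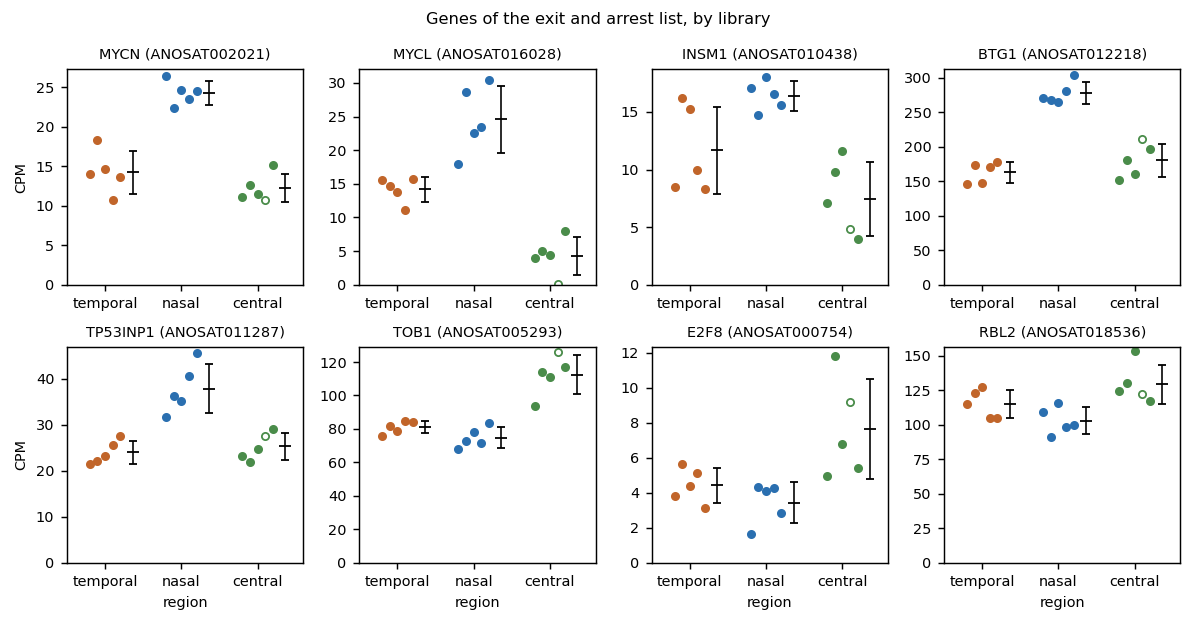
Levels in CPM (y axes, from 0) of MYCN, MYCL, INSM1, BTG1, TP53INP1, TOB1, E2F8 and RBL2 in the temporal, nasal and central libraries; each point is a library, the open circle is central replicate 4, and the black bar is the mean with its SD. MYCN, BTG1 and TP53INP1 are highest in the nasal libraries, and TOB1 is highest in the central libraries (mean 112 CPM).

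Outside the exit list, CIT, the citron kinase of cytokinesis, was higher in temporal than in nasal libraries (242 ± 10.8 and 155 ± 15.9 CPM; 0.65, SE 0.126, edgeR adjusted p = 0.00346). Chosen after their values were seen, 2 further genes are given for their size. SMC4, a condensin subunit that compacts mitotic chromosomes, averaged 14.9 ± 1.49 CPM in temporal, 24.3 ± 4.05 CPM in nasal and 11.1 ± 0.802 CPM in central libraries (nasal against central 1.12, SE 0.133, edgeR adjusted p = 7.18e-06). LMNB1, the nuclear lamin of dividing and many other cells, averaged 81.8 ± 4.13, 130 ± 5.24 and 68.7 ± 8.60 CPM (nasal against central 0.92, SE 0.0881, edgeR adjusted p = 5.7e-07). Each was also lower in temporal than in nasal libraries, SMC4 at -0.71 (edgeR adjusted p = 0.00238) and LMNB1 at -0.67 (edgeR adjusted p = 7.97e-05).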

How the data were processed

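The authors deposited a table of raw read counts per gene model, each with a gene symbol, for all 15 libraries (TruSeq Stranded mRNA). The submitters' processing notes name HISAT2 2.2.1 and featureCounts; no options or strand setting are stated there, so reads of overlapping genes may not be separated. The table breaks off without a final line end, and gene models after it may be missing. No sample column was left out (0 unused), and no row lacks a gene name.

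Counts were compared in R 4.3.3 with edgeR 4.0.16: filterByExpr by region (minimum count 10), TMM scaling (factors 0.975 to 1.02), a robust quasi-likelihood fit of all 15 libraries, and Benjamini-Hochberg adjustment across all 15910 tested gene models; an adjusted p under 0.05 was called. The fit was also run on simulated counts of independent libraries. These had no pairing by replicate number and no library like central replicate 4, so that run does not cover either. Differences are nasal or temporal minus central, and temporal minus nasal. Of the 47 member symbols, 46 are in the RefSeq table. Intervals and the limit of 3 reads for a count of 0 cover counting error only. Members and lists were chosen with earlier results of these data known. Library values are given for the 3 CDK inhibitors and, in each role group, the gene model of highest mean CPM and up to 3 called gene models of lowest adjusted p; MKI67 and KIF23 were added after their values were seen. From the wider lists, up to 2 called gene models per direction and comparison with at least 5 CPM in the higher region, and all called genes of the exit list, are named.

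Libraries of 1 region differed by more than sampling noise (chi-square per degree of freedom 10.3 to 66.9 over 30 pairs). Libraries of the same replicate number deviated together from their region means in all 15 cross-region pairs (r 0.193 to 0.524, limit 0.1), so the numbers pair the libraries. The main fit and the fits leaving out 1 library do not use this pairing. Only the replicate block does. The alternatives were DESeq2 1.42.0, limma 3.58.1 (voom with sample quality weights), RLE and upper-quartile scaling, no filter and a stricter filter (minimum count 50), fits of 2 regions, the replicate block, leaving out each library, and, chosen after seeing the data, counts summed over the gene models of a symbol. A search for promoter motifs was not run. Figures were drawn with matplotlib 3.10.9.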

Additional observations from a re-analysis of the deposited data

Results flagged for a closer look

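In these values 1 library lay far from the other 4 of its region by Dixon's test, which was run on 156 groups of member levels and 45 groups of list levels; chance alone gives about 1 in 20. It picked out 10 member gene models, 7 of them in central replicate 4. In that library RRM1 (ANOSAT009182) had 3.21 CPM against 9.54 to 12.1 CPM in the other central libraries, and CCNE2 had 4.49 CPM against 1.37 to 2.23. Some members were high there: CDK1 had 5.26 CPM against 0.722 to 1.32, AURKB 10.9 CPM against 1.91 to 4.30, MKI67 7.76 CPM against 1.89 to 3.18, BUB1B 4.04 CPM against 0.782 to 1.37, and CENPE (ANOSAT013196) 3.27 CPM against 0.446 to 0.977. Other members of mitosis and cytokinesis were low in the same library, with 0 reads for BUB1, CDC20, ECT2, TPX2 and KIF23 and the lowest central value for TOP2A (1.15 CPM). By group mean, nucleotide supply was at -0.454 log2 CPM in this library (0.996 to 1.30 in the others), cyclins and kinases of G2 and M at 2.45 (1.02 to 1.16), CDK inhibitors at 3.42 (3.98 to 4.15), and the origin recognition and firing list at 1.71 (2.25 to 2.38).

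Elsewhere, nasal replicate 1 had 1.77 CPM of PLK1 against 1.11 to 1.28 in the other nasal libraries and 61.7 CPM of RB1 against 89.1 to 98.0, and nasal replicate 4 had 0.689 CPM of TPX2 against 1.25 to 1.48. The kinetochore and checkpoint list was at 1.73 log2 CPM in temporal replicate 3, against 2.02 to 2.13 in the other temporal libraries.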

How the results depend on the processing

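Over 24 alternatives, CDC6, CDK6, CENPF, CDKN1A and CDKN1C stayed called for nasal against central, CDK6 and CENPF for temporal against central, and CDKN1A and CDKN1C for temporal against nasal. Leaving out 1 library gave 5 to 10 members called for nasal against central (5 without nasal replicate 2, 6 without central replicate 1 or nasal replicate 5), 3 to 4 for temporal against central and 2 to 3 for temporal against nasal; limma-voom gave 5 for the last. MCM6, PCNA, CDK4, CCND1 and TOP2A for nasal, and CDC6 and TOP2A for temporal against central, lost their call without single libraries, and some of them with a fit of 2 regions or no filter, as given with the results. All of these kept their call with the replicate block (edgeR adjusted p 0.000724 to 0.0361). In the wider lists, leaving out 1 library gave 15 to 31, 2 to 6 (2 without temporal replicate 1) and 7 to 16 calls for nasal against central, temporal against central and temporal against nasal (16 without central replicate 4). The replicate block gave 37, 11 and 17, limma-voom 43, 7 and 27, DESeq2 7 and 14 in the last 2 comparisons, and a fit of 2 regions 15 in the last. Shares of all gene models for the block, limma-voom and DESeq2 are given with the results. Beside the calls of CDC6 and KIF23 given with the results, the replicate block changed no other call of a member. Among members with library values fixed by rule, signs turned only in comparisons with no call: CDKN1B for nasal against central (-0.00155 with DESeq2 and with RLE scaling, -0.00595 with the stricter filter, -0.00338 with 2 regions, and -0.0925 to 0.104 leaving out 1 library) and, with limma-voom, CDKN1B (0.0366) and RB1 (0.0039) for temporal against central. Leaving out 1 library, RB1 ranged over -0.0218 to 0.193 (nasal) and -0.19 to 0.0234 (temporal), RRM1 (ANOSAT009182) over -0.0151 to 0.311 (temporal) and CDKN1C over -0.109 to 0.0246 (temporal). The causes were not tested. No scaling moved the median of all genes by over 0.1. Depth limits the 32 members under 5 CPM.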
